A study of Mus musculus with 2 samples.

Results

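Of the 2202 mouse miRNA genes in the deposited count tables, 6 are considered here: Mirlet7g, Mirlet7b, Mirlet7i, Mirlet7d, Mirlet7e and Mir98, let-7 family genes whose mature sequences each occur in a single annotated miRNA hairpin. They were chosen by name, and all 6 were found in the tables and detected (10 counts or more in each library). The remaining 6 let-7 genes, Mirlet7a-1, Mirlet7a-2, Mirlet7c-1, Mirlet7c-2, Mirlet7f-1 and Mirlet7f-2, share a mature sequence pairwise and serve here for comparison. The small RNA of whole adrenal glands was sequenced from B6CASTF1/J females, an F1 hybrid, 36 days old; per the labels the libraries started from total RNA, and no treatment is given. The only group holds 2 libraries, called replicate 1 and replicate 2 after the labels. The labels name separately numbered females but 1 donor identifier, so the spread between the libraries may be technical. With no second group, the design compares genes within this gland and the replicates with each other.

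The let-7 miRNAs were first described in Caenorhabditis elegans as regulators of developmental timing. In mammals they accumulate as cells differentiate, and they repress growth genes such as Hmga2 and the Ras genes through a shared seed near the 5′ end. The RNA-binding proteins LIN28A and LIN28B block the maturation of let-7 precursors in early development and leave less of the family in undifferentiated cells.

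The mature 5p sequences of the 6 genes are shown because they carry both what the family shares and what lets an exactly matching read be assigned to a single gene. They are the RefSeq entries for GRCm38.p6, written 5′ to 3′, with the seed (bases 2 to 8) in capitals.
let-7g-5p: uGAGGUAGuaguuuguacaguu
let-7b-5p: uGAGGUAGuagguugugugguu
let-7i-5p: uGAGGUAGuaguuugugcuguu
let-7d-5p: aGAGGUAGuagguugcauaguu
let-7e-5p: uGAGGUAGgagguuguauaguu
miR-98-5p: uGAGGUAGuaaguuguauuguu

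All 6 hold the seed GAGGUAG and are 22 bases long, so they differ only outside the seed. Counted from the 5′ end, with the first-named sequence's base first, let-7b-5p differs from let-7c-5p by G17A and let-7e-5p differs from let-7a-5p by G9U. The pair let-7g-5p and let-7i-5p differs by A17G and A19U. The most distant pair is let-7i-5p and let-7d-5p, with 6 differences. The let-7a, let-7c and let-7f sequences below, with bases that differ from let-7a in capitals, stand 1 or 2 changes apart.
let-7a-5p: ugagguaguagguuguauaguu
let-7c-5p: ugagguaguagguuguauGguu
let-7f-5p: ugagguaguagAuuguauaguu

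**Figure D1:**
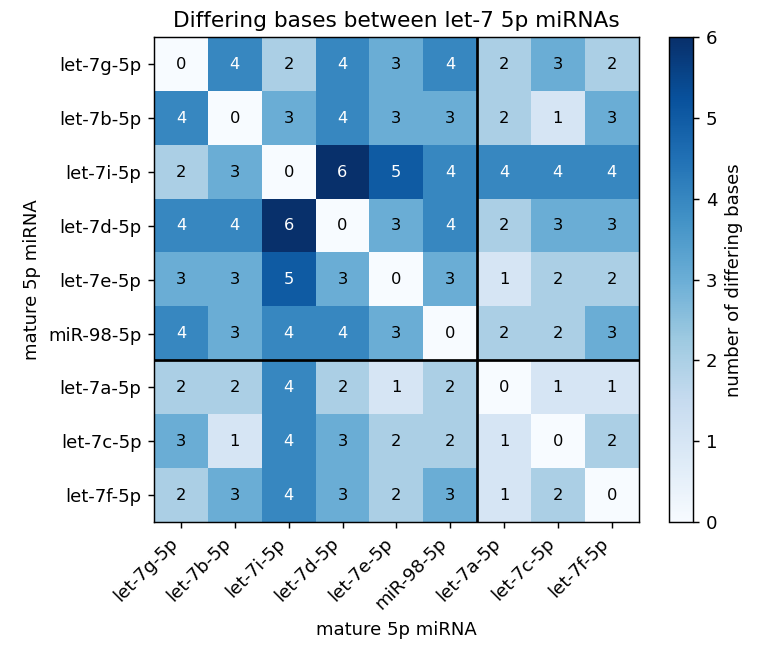
Number of differing bases between each pair of the 9 let-7 family 5p miRNAs, written in each cell and shaded from 0 to 6. Black lines part the 6 single-locus miRNAs from let-7a, let-7c and let-7f; let-7b and let-7c, and let-7e and let-7a, stand 1 base apart, and let-7i and let-7d stand 6 apart.

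Each of the 12 mature sequences of the 6 genes, from both arms, occurred in exactly 1 annotated miRNA hairpin, whereas let-7a-5p, let-7c-5p and let-7f-5p each occurred in 2. A read that begins at base 1 of the 5p arm fits a single hairpin after 9 bases for let-7d and after 11 bases for miR-98. It needs 17 bases for let-7b, let-7e, let-7g and let-7i. The longest stretch that a hairpin shared with any other was 14 to 19 bases for the 6 genes and 22 to 26 bases for the other let-7 genes. The check covered exact matches to annotated miRNA hairpins, not the rest of the genome. How mismatched bases were treated in the counting is not given. Whether let-7a or let-7c reads with 1 changed base entered the counts of Mirlet7e or Mirlet7b cannot be read from gene counts.

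The 6 genes lie on 6 chromosomes (mm10, GENCODE M21). Mirlet7g (ENSMUSG00000065440.1, chr9:106178840-106178927, plus strand) lies in an intron of Wdr82, which encodes a subunit of histone H3K4 methyltransferase complexes. Its hairpin is shown because it had the most counts of the 12 let-7 genes, with the mature arms in capitals.
Mirlet7g hairpin: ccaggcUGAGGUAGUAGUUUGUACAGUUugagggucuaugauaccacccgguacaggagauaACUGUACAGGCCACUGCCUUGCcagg

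Mirlet7b (ENSMUSG00000065564.1, chr15:85707319-85707403, plus strand) lies in an exon of the noncoding transcript Lncppara. Mirlet7i (ENSMUSG00000065406.3, chr10:122985640-122985724, minus strand) lies within D630033A02Rik, annotated as a transcribed processed pseudogene, in an exon of 1 of its 2 transcripts that span the hairpin. Mirlet7d (ENSMUSG00000065453.1, chr13:48536012-48536114, minus strand) lies in an exon of the lincRNA 6720427I07Rik. Mirlet7e (ENSMUSG00000105758.1, chr17:17830352-17830444, plus strand) lies in an intron of Spaca6, whose product acts in sperm-egg fusion. Mir98 (ENSMUSG00000065536.2, chrX:151913214-151913321, plus strand) lies in an intron of Huwe1, which encodes a ubiquitin ligase. Within 10 kb on the same strand, Mirlet7b has Mirlet7c-2, Mirlet7d has Mirlet7f-1 and Mirlet7a-1, Mirlet7e has Mir99b and Mir125a, and Mir98 has Mirlet7f-2. Mirlet7g and Mirlet7i have no annotated miRNA neighbour.

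Replicate 1 held 5397603 sense miRNA counts and replicate 2 held 3029977, a 1.78-fold difference in depth, and 339 genes were detected. Levels are counts per 1000000 sense miRNA counts (CPM), so a single count equals 0.185 CPM for replicate 1 and 0.330 CPM for replicate 2. Reads that aligned at several places were listed as a separate entry and made up 28.5% and 30.6% of all reads in replicates 1 and 2. They were taken to enter no gene's count, though the counting rule is not given. The endocrine and chromaffin cell markers Mir375, Mir7b and Mir137 were all present and summed to 31926 and 25758 CPM. Mir375 made up most of that sum and was lower in replicate 2 (28922 and 22246 CPM). Mir7b (2569 and 3010 CPM) and Mir137 (435 and 503 CPM) were higher in replicate 2. Of the 7 other marker groups, endothelium (Mir126a) stood at 133209 and 69285 CPM in replicates 1 and 2, hepatocytes (Mir122) at 1503 and 146 CPM and red cells at 1210 and 576 CPM. Smooth muscle stood at 30240 and 59237 CPM, epithelium at 823 and 3691 CPM, white cells at 1928 and 2617 CPM and striated muscle at 482 and 523 CPM. Epithelium was almost all Mir203 (822 and 3691 CPM), since Mir205 had 7 counts in replicate 1 and 1 in replicate 2. Striated muscle was almost all Mir206 (474 and 494 CPM), with Mir133a-1 at 0 and 1 counts. Among the white cell markers only Mir342 was lower in replicate 2 (583 and 568 CPM). No marker was at 0 in both libraries. Their part in the ratios given below was not tested. Whole gland was sequenced, so fewer cells of a type and less miRNA per cell cannot be told apart.

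The 6 genes held 22.7% of sense miRNA counts in replicate 1 (95% Wilson interval 22.68 to 22.75%) and 23.4% in replicate 2 (23.39 to 23.48%), a mean of 23.1% ± 0.511 (SD, n = 2). Intervals cover counting error only, since PCR copies of a molecule cannot be recognised. Mirlet7g, Mirlet7b and Mirlet7i alone held 20.3% ± 0.575. The 6 other let-7 genes held 0.623% ± 0.0630, and the single-locus genes made up 97.1% and 97.6% of all let-7 counts in replicates 1 and 2. Full-length reads of let-7a, let-7c and let-7f fit 2 hairpins each, and reads with several places were taken to enter no gene's count. This share thus describes the table and not the let-7 content of the gland.

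Mirlet7g had the most counts of the 12 let-7 genes, with 90540 CPM in replicate 1 and 101505 CPM in replicate 2. Its mean was 96023 ± 7753 CPM (SD, n = 2), and it ranked 2 of all genes in replicate 1 and 1 in replicate 2. Counts of let-7a, let-7c and let-7f may lack reads that fit 2 hairpins, so this order describes the table. Mirlet7b followed with 68707 and 61387 CPM (65047 ± 5176). Mirlet7i had 39256 and 43746 CPM (41501 ± 3175). Each of these 3 genes was among the 8 most abundant miRNA genes in both libraries.

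The lower members sat well within the abundant part of the profile. Mirlet7d had 13152 and 13684 CPM (13418 ± 376), the closest agreement of the 6 in CPM. Mirlet7e had 10255 and 8214 CPM (9234 ± 1443), the widest spread for its mean, with a coefficient of variation of 15.6% against 2.81% for Mirlet7d. This ranking depends on the scaling between the libraries. With the TMM library sizes used further below, Mirlet7e agreed most closely (1.01-fold) and Mirlet7d stood 1.28-fold higher in replicate 2. Mir98, which carries a miR number but belongs to let-7 by seed and sequence, had 5202 and 5798 CPM (5500 ± 421) and ranked 35 and 31. In these counts the lowest member stood above every other let-7 gene, among which Mirlet7f-2 was highest with 4289 and 3889 CPM (4089 ± 282). The remaining 5 let-7 genes ranged from 119 CPM (Mirlet7a-2) to 1097 CPM (Mirlet7c-2) on average. Mature 5p sequences of these other let-7 genes each occur in 2 hairpins, so their counts may lack reads and the order describes the table.

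**Figure D2:**
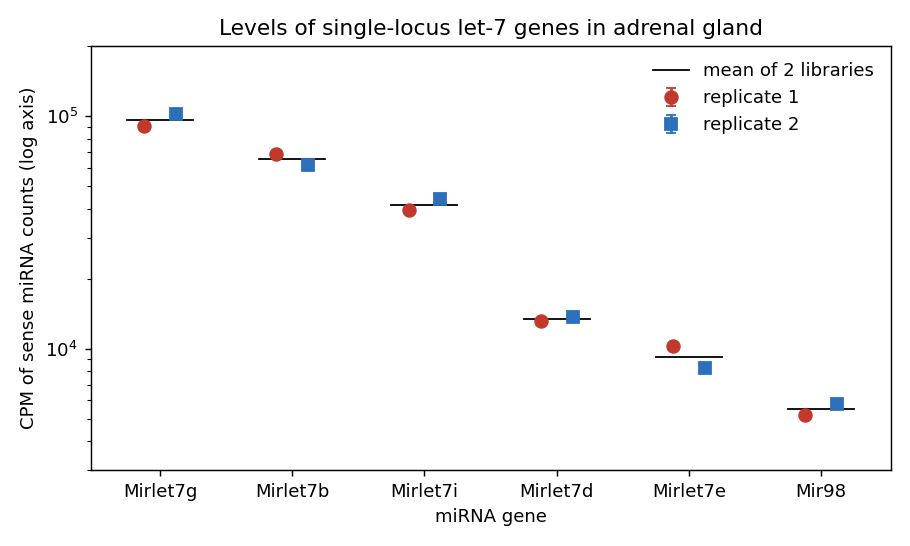
CPM of sense miRNA counts (log axis) of the 6 single-locus genes, with replicate 1 as circles, replicate 2 as squares, 95% Wilson intervals smaller than the points and a line at the mean. The genes run from 96023 CPM (Mirlet7g) to 5500 CPM (Mir98) on average, and the step between Mirlet7i and Mirlet7d is wider than the gaps between the libraries.

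The order Mirlet7g, Mirlet7b, Mirlet7i, Mirlet7d, Mirlet7e, Mir98 was the same in both libraries, for all 15 pairs, and no pair had overlapping ranges. The pooled spread over all tested genes, estimated by edgeR as 1 common dispersion without any group term, was a coefficient of variation of 41.9%. With that spread the means of 2 genes would have to differ by 2.27-fold, and 11 of the 15 pairs did. The order is one of read counts, and this limit covers only the spread between the libraries. An error alike in both libraries would not show in it. Of the 5 pairs of neighbours in the order, only Mirlet7i over Mirlet7d passed this limit, at 2.98-fold in replicate 1 and 3.20-fold in replicate 2. Mirlet7g over Mirlet7b (1.32-fold and 1.65-fold), Mirlet7b over Mirlet7i (1.75-fold and 1.40-fold), Mirlet7d over Mirlet7e (1.28-fold and 1.67-fold) and Mirlet7e over Mir98 (1.97-fold and 1.42-fold) stayed within it. The 11 pairs beyond the limit were all 9 pairs of 1 of the upper 3 genes with 1 of the lower 3, and 2 others, Mirlet7g over Mirlet7i at 2.31-fold and Mirlet7d over Mir98 at 2.44-fold.

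Within the 6, Mirlet7g made up 39.9% of the counts in replicate 1 and 43.3% in replicate 2, and Mirlet7b made up 30.3% and 26.2%. Mirlet7i made up 17.3% and 18.7%, Mirlet7d 5.79% and 5.84%, Mirlet7e 4.52% and 3.51%, and Mir98 2.29% and 2.47%. Mirlet7b and Mirlet7e thus held more of the set in replicate 1, and the other 4 held more in replicate 2.

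The ratio of 2 members inside a library does not depend on how libraries are scaled, so it shows this shift directly. Mirlet7g over Mirlet7i was 2.31 in replicate 1 and 2.32 in replicate 2, a change of 0.994-fold (95% counting interval 0.986 to 1.002). Mirlet7g over Mir98 was 17.4 and 17.5, a change of 0.994-fold (0.975 to 1.01). Mirlet7i over Mir98 was 7.546 and 7.545, a change of 1.00-fold (0.980 to 1.02). These 3 pairs, from 3 chromosomes, were the only ones of the 15 whose interval included no change.

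In the counts as deposited, the largest changes were those of pairs with Mirlet7e. Mirlet7g over Mirlet7e was 8.83 in replicate 1 and 12.4 in replicate 2, a change of 0.714-fold (0.703 to 0.726), the largest of the 15 pairs in size at 1.40-fold. Mirlet7g over Mirlet7b changed by 0.797-fold (0.791 to 0.803). The median change over the 15 pairs was 1.16-fold, and all were well under the 5.18-fold that the pooled spread allows for a ratio of 2 genes. That limit is wide for abundant genes, so being under it does not show that the ratios held. The log2 ratios between the libraries had an SD of 0.69 over the 64 genes with at least 1000 CPM in both, against 1.02 over all 434 tested.

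These pair changes are free of the scaling but moved with GC content. Over 284 genes the log2 ratio of the libraries rose by 0.29 per 10 points of hairpin GC, and the hairpins of the 6 genes run from 44.4% GC (Mir98) to 62.4% (Mirlet7e). With that trend removed, an alternative added after the data were seen, Mirlet7g over Mirlet7i changed by 1.03-fold (1.02 to 1.04), Mirlet7g over Mir98 by 0.848-fold (0.832 to 0.865) and Mirlet7i over Mir98 by 0.822-fold (0.806 to 0.839). Mirlet7g over Mirlet7e then changed by 0.877-fold (0.863 to 0.890), and the largest change was that of Mirlet7b over Mirlet7i at 1.31-fold. Mirlet7b over Mirlet7d was then the 1 pair whose interval included no change, at 1.01-fold (0.995 to 1.02). The corrected intervals cover counting error only and take the fitted slope as exact, though the trend was loose (Spearman rho 0.35). They therefore cannot decide which pairs kept their ratio after the correction. Which pairs appeared to keep their ratio and which moved most thus depended on the GC correction.

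**Figure D3:**
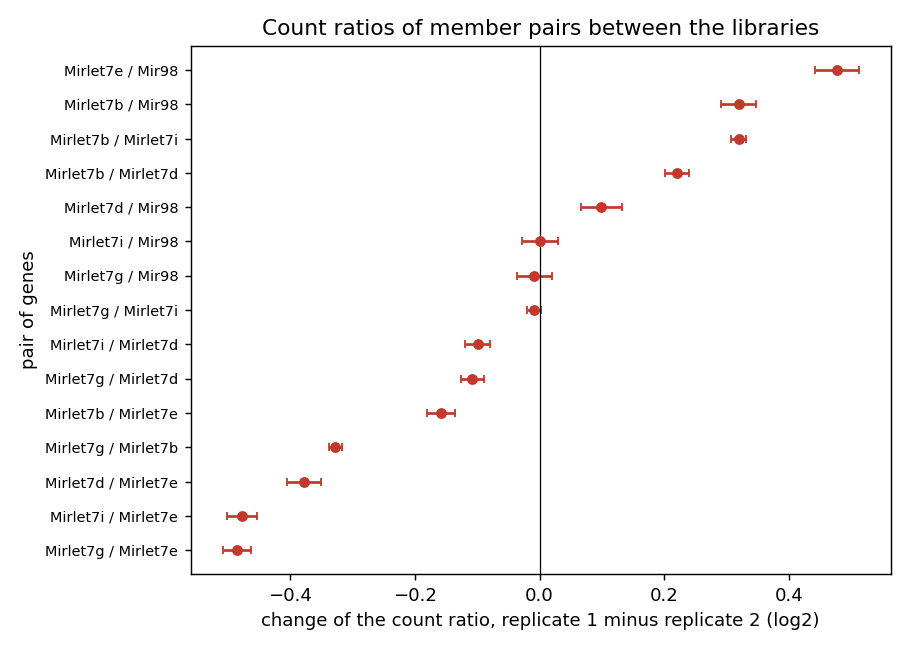
Change in the count ratio of each of the 15 pairs of members, replicate 1 minus replicate 2 (log2), with 95% counting intervals as bars. The counts are as deposited, with no GC correction. The 3 pairs among Mirlet7g, Mirlet7i and Mir98 sit at 0, and pairs with Mirlet7e lie as far as -0.49 (Mirlet7g over Mirlet7e) and 0.48 (Mirlet7e over Mir98).

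Setting each gene against the whole profile requires a scaling between the libraries. With TMM effective library sizes, the log2 ratio of replicate 1 over replicate 2 was -0.47 for Mirlet7g, -0.46 for Mirlet7i, -0.46 for Mir98, -0.36 for Mirlet7d, -0.14 for Mirlet7b and 0.02 for Mirlet7e. An exact two-sided binomial test of the 2 libraries, adjusted by Benjamini-Hochberg over 434 genes, called 5 of the 6, all lower in replicate 1. The background was high: 58.5% of the 434 genes were called. Of all 434, 30.2% were called higher in replicate 1 and 28.3% were called higher in replicate 2. Abundant genes were called more often. Of the 64 genes with at least 1000 CPM in both libraries, the 6 included, 58 were called. Of these, 15 were higher in replicate 1 and 43 were higher in replicate 2. The adjusted p was 9.4e-250 for Mirlet7b and 1.5e-231 for Mir98, too small for the number format for Mirlet7g, Mirlet7i and Mirlet7d, and 0.147 for Mirlet7e. The test compares the libraries against counting error only, and at this depth it called a ratio as small as the 1.10-fold of Mirlet7b.

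The direction of Mirlet7b and Mirlet7e depended on the scaling. Scaling to total sense counts moved the log2 ratio of all genes by 0.30, so that Mirlet7b stood at 0.16 and Mirlet7e at 0.32, both called higher in replicate 1, where 43.5% of genes were called higher. Under that scaling Mirlet7g (-0.16), Mirlet7i (-0.16), Mir98 (-0.16) and Mirlet7d (-0.06) were called lower in replicate 1, beside 19.1% of all genes. Of the 64 genes with at least 1000 CPM in both libraries, 27 were then called higher in replicate 1 and 34 were called lower. With the pooled spread as the error, edgeR's exact test called none of the 6 and 0% of the 434 genes. That spread was estimated from these same 2 libraries taken as 1 group. The test is therefore set to call few genes and cannot decide whether a member differs.

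Under TMM the members' ratios were of the size seen over all abundant genes. Their median fold size was 1.327, beside 1.333 over the 64 genes with at least 1000 CPM in both libraries, which include the 6. It was 1.17 over the 6 other let-7 genes and 1.49 over all 434. With total sense counts the median was 1.12 for the members and 1.26 for the 64 genes. All 6 were within 1.5-fold under TMM, as were the 6 other let-7 genes, 42 of the 64 abundant genes (65.6%) and 219 of the 434 tested genes (50.5%). Their median log2 ratio was -0.41, against 0.06 over all 434 genes and -0.36 over the 64 abundant ones.

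**Figure D4:**
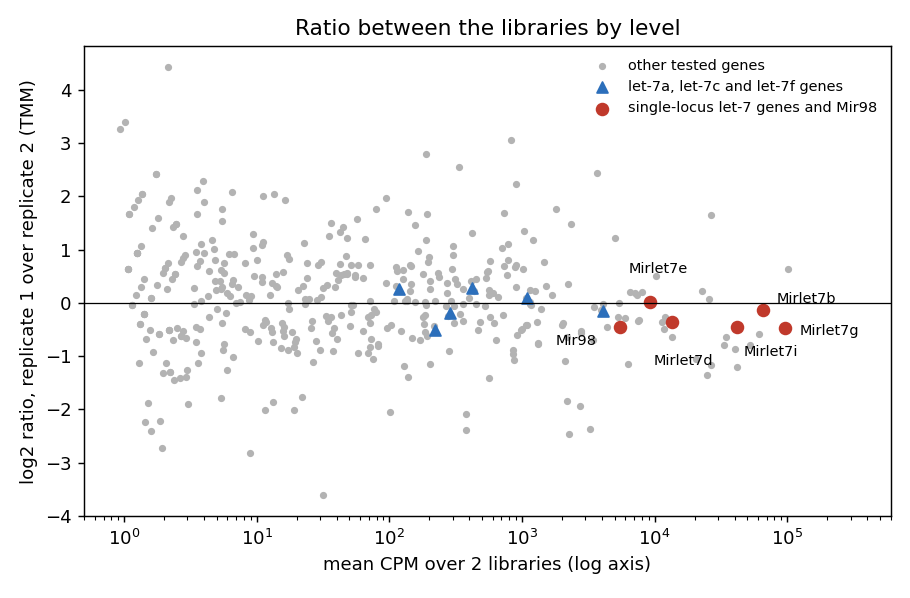
The log2 ratio of replicate 1 over replicate 2 (TMM) against mean CPM (log axis) for the 434 tested genes, each a point. The 6 single-locus genes lie from -0.47 to 0.02 at the abundant end, where most genes scatter less than at low counts.

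Genes a short distance apart on the same strand differed widely in level from some members. Mirlet7b was 55.3-fold above Mirlet7c-2, 621 bases away, in replicate 1 and 64.5-fold above it in replicate 2. Mirlet7d was 64.9-fold and 58.1-fold above Mirlet7f-1, and 44.2-fold and 49.5-fold above Mirlet7a-1. Mir98 stood closer to Mirlet7f-2, 785 bases away, at 1.21-fold and 1.49-fold. All 4 of these neighbours have a copy of their mature sequence elsewhere, so their counts are uncertain and the folds describe the table.

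Mirlet7e is the member whose neighbours lie outside the let-7 family. Mir99b belongs to the miR-99/miR-100 family, and Mir125a belongs to the family of C. elegans lin-4, another timing regulator. Mirlet7e had 55350 and 24888 counts in replicates 1 and 2, and Mir99b, 94 bases away, had 45878 and 18903. Their ratio was 1.21 in replicate 1 and 1.32 in replicate 2, a 1.09-fold change and the smallest among the members' neighbours. Mir125a, 367 bases away, had 39998 and 7813 counts, and Mirlet7e stood 1.38-fold and 3.19-fold above it, a 2.30-fold change. The ratio of Mir99b over Mir125a moved likewise, 1.15 and 2.42, a 2.11-fold change. Both changes are under the 5.18-fold limit of the pooled spread. That spread was estimated from these same 2 libraries, so the limit cannot decide whether the ratios moved.

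**Figure D5:**
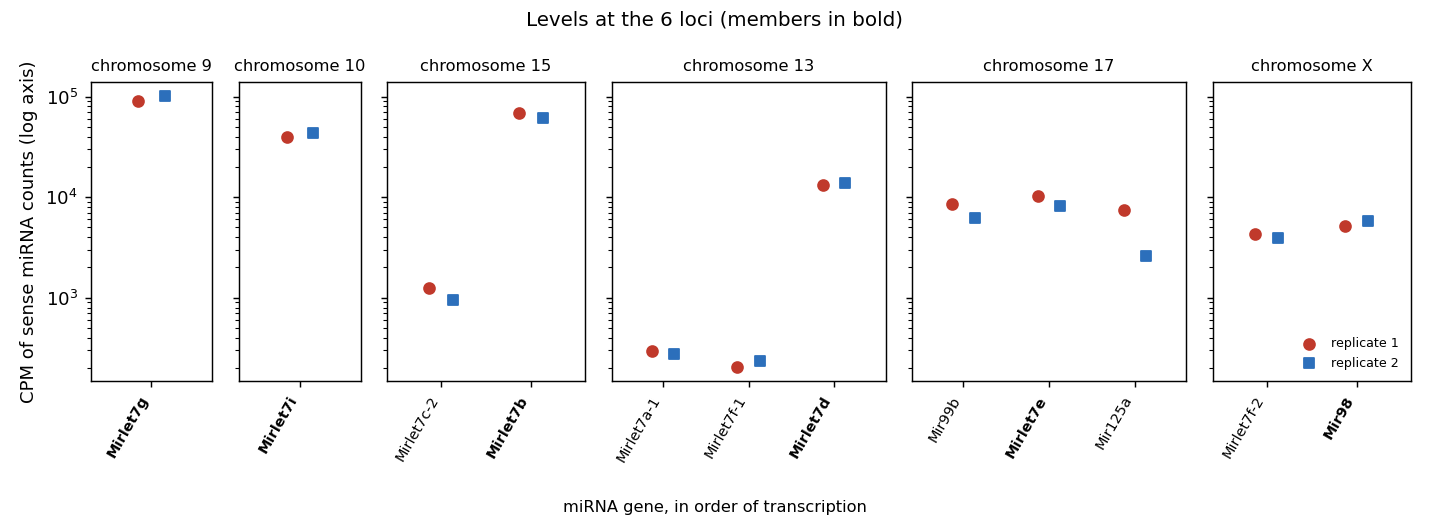
CPM of sense miRNA counts (log axis) of each member (bold) and its miRNA neighbours within 10 kb on the same strand, in order of transcription, 1 panel per chromosome, with replicate 1 as circles and replicate 2 as squares. Mirlet7b and Mirlet7d stand far above their let-7 neighbours, whose counts are uncertain because their mature sequences have a copy elsewhere. Mir125a shows the widest gap between the libraries.

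Among the 6, only Mirlet7e lost its counts when strand was ignored. Gm25927, an annotated miRNA gene, overlaps it on the opposite strand, and the column counted without strand gave Mirlet7e 0 counts in both libraries. The sense column gave it 55350 and 24888. Without strand the other 5 members' counts differed by at most 12, and their CPM were higher because the total was smaller (Mirlet7g averaged 119483 CPM, against 96023 CPM with strand).

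By level over the libraries (Euclidean distance in log2(CPM + 1)), the nearest gene outside the 6 was Mir126a for Mirlet7g (distance 0.78), Mir378a for Mirlet7b (0.34), Mir23a for Mirlet7i (0.29), Mir99a for Mirlet7d (0.20), Mir652 for Mirlet7e (0.34) and Mir27b for Mir98 (0.15). The next nearest were Mir378a (0.92), Mir10a (0.66), Mir26b (0.42), Mir127 (0.26), Mir30d (0.38) and Mir411 (0.21), in the same order of members. With 2 libraries, likeness reflects level far more than pattern.

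Outside the 12 let-7 genes, the seed GAGGUAG occurred in mature sequences of Mir7k and Mir1961, which were named after their values were seen. Mir7k had 5 and 2 counts in replicates 1 and 2, and Mir1961 had 2 and 0, where a count of 0 allows up to 0.990 CPM. Mir202, whose miR-202-3p has the related seed GAGGUAU, had 97 and 30 counts, or 18.0 and 9.90 CPM. None of these genes came near the level of the lowest member, Mir98.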

How the data were processed

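MicroRNA-seq of 2 adrenal gland libraries was analysed from raw read counts per miRNA gene, deposited by the authors in 3 columns without a header. The submitters' processing notes name mm10 and GENCODE M21; which aligner, counter and trimming were used is not given in sources used here. The columns were read from their values as unstranded, sense and antisense counts; sense counts were used. The 4 summary entries (unmapped 26.0% and 22.3%, several places 28.5% and 30.6% and no gene 6.88% and 6.86% of reads in replicates 1 and 2, and ambiguous) entered neither library sizes nor tests. Replicate totals limit the precision, with 3 counts (0.556 and 0.990 CPM) as the floor for a count of 0.

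TMM sizes came from edgeR 4.0.16 in R 4.3.3, and ratios had 0.5 counts added. Genes with 10 or more counts summed over the libraries were tested. The binomial test was exact and two-sided (scipy 1.17.1), and p-values were adjusted by Benjamini-Hochberg in statsmodels 0.14.6, with a threshold of 0.05. The alternatives were DESeq2 1.42.0 size factors, total counts, other filters and priors, the pooled edgeR dispersion, removal of a GC trend, thinning and counts without strand. The GC correction of pair ratios was added after seeing the data. All 6 genes matched RefSeq hairpins, and all 2202 identifiers matched M21. Calculations on the whole table were tested on simulated data. Figures were drawn with matplotlib 3.10.9 and tables made with numpy 2.4.6 and pandas 2.3.3, in Python 3.11.15. Named genes were the 6 members, the other let-7 genes, neighbours within 10 kb, overlapping genes on the opposite strand, Mir202, Mir126a and the 2 nearest genes by level. The members and lists were chosen with earlier results of these data known.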

Additional observations from a re-analysis of the deposited data

Results flagged for a closer look

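Counts on the antisense strand, outside the main measurement, were present at Mirlet7b: 12 in replicate 1 and 8 in replicate 2, above the limit of 3 that a count of 0 allows. They equal 0.00324% and 0.00430% of its counts on both strands. Over the 2138 genes with no annotated miRNA gene on the other strand, antisense counts made up 0.0123% and 0.0169% of counts on both strands, so the share at Mirlet7b was lower than that of those genes together. The other 5 members had 0 antisense counts, except 1 at Mir98 in replicate 2.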

How the results depend on the processing

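Of 144 recomputed values over 36 results, 94 stayed within their limits. The ratio of Mirlet7b (log2, replicate 1 over replicate 2; -0.14) reversed to 0.16 with total sense counts and lost its call at -0.0069 (adjusted p 0.224) with a minimum of 1 count. The ratio of Mirlet7e (0.02) reversed to -0.055 with DESeq2 size factors and to -0.34 with the hairpin GC trend removed. It became a call at 0.32 with total sense counts, 0.055 without Mir126a, 0.15 with a minimum of 1 count, 0.13 with a minimum of 100 counts and 0.040 with the deeper library thinned. For these changes the cause was not tested beyond the shift each scaling makes in all genes. The GC trend itself was 0.29 log2 per 10 points of hairpin GC over 284 genes, and without it the other 5 ratios ran from -0.58 (Mirlet7i) to -0.19 (Mirlet7b). Removing it, an alternative chosen after seeing the data, also reversed the change between the libraries (log2) of the ratio of Mirlet7b over Mirlet7e (0.15, against -0.16 as deposited), Mirlet7d over Mirlet7e (0.14, against -0.38) and Mirlet7e over Mir98 (-0.047, against 0.48). A change of sign was seen for 5 pairs in total. These included Mirlet7g over Mirlet7i (0.045, against -0.0087) and Mirlet7i over Mir98 (-0.28, against 0.00017), whose counting intervals as deposited included no change.

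With edgeR's pooled dispersion no call was left at -0.47 (Mirlet7g), -0.46 (Mirlet7i and Mir98), -0.36 (Mirlet7d) or -0.14 (Mirlet7b). That dispersion was estimated from these same 2 libraries, so this does not decide whether the members differ. With a 1.5-fold minimum 0 members were called, against 5.

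Levels moved with the denominator. Without strand, per 1000000 reads of all kinds and without Mir126a, Mirlet7g stood at 119483, 37906 and 106758 CPM, Mirlet7b at 81246, 25619 and 72611, Mirlet7i at 51645, 16382 and 46145, Mirlet7d at 16717, 5293 and 14938, and Mir98 at 6845, 2171 and 6116. Mirlet7e stood at 0 without strand and 3633 per 1000000 reads. The share of the 6 genes stood at 27.6%, 9.10% and 25.7%. Leaving out a replicate gave shares of 22.7% and 23.4% and kept the order; it leaves no ratio between libraries, and Mirlet7e had none without strand. No paired analysis was possible because there is 1 group. Depth limits Mir7k, Mir1961 and Mir202, not the members.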

Other observations

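The let-7j sequence, from Mir7j on chromosome 3, was compared with let-7i after its values were seen. Over 22 bases let-7j differs from let-7i-5p by G8U alone, the let-7i base first, counted from the 5′ end, and it is 24 bases long. It is shown with that base in capitals because the change lies in the seed.
let-7j: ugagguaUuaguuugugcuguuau

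Replicate 1 held 303 counts at Mir7j (56.1 CPM) and replicate 2 held 285 (94.1 CPM), beside 211886 and 132549 counts at Mirlet7i. Its log2 ratio of replicate 1 over replicate 2 was -1.05 under TMM, against -0.46 for Mirlet7i, and the difference between these ratios was not tested. Whether reads at Mir7j carry the let-7j base cannot be read from gene counts.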
